A study of Homo sapiens with 12 samples.

Results

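The 35 genes described here encode the enzymes that build nucleotides and the supply lines that feed them: 10 of purine synthesis (PPAT, GART, PFAS, PAICS, ADSL, ATIC, IMPDH1, IMPDH2, GMPS and ADSS), 5 of pyrimidine synthesis (CAD, DHODH, UMPS, CTPS1 and CTPS2), 6 of deoxynucleotide synthesis (RRM1, RRM2, TYMS, DUT, TK1 and DCK), 8 of the pentose phosphate pathway and ribose activation (PGLS, PGD, RPIA, RPE, TKT, TALDO1, PRPS1 and PRPS2), 5 of folate one-carbon metabolism (SHMT1, SHMT2, MTHFD1, MTHFD1L and MTHFD2) and the nucleoside diphosphate kinase gene NME1. They were picked by gene symbol for their place in these pathways, and all 35 were found among the 58307 named rows of the count table. RNA was sequenced from polyA-selected libraries of melanoma cells that had all received etoposide, a poison of topoisomerase II. The cells labelled A375 and those labelled SK-MEL-28, which are established human melanoma cell lines, received etoposide alone or etoposide + rapamycin, which inhibits mTOR. There were 3 libraries in each of these 4 groups, described as biological replicates. Doses and times are not given in the labels, and cells with neither drug or with rapamycin alone were not analysed here. Library totals ran from 28189501 to 32499337 counts.

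Cells make purine and pyrimidine rings from amino acids, bicarbonate and one-carbon units carried by folate, on a ribose phosphate that comes from the pentose phosphate pathway. Ribonucleotide reductase turns the ribonucleotides into deoxynucleotides, and its R2 subunit, thymidylate synthase and thymidine kinase are known to be made mainly around S phase, when DNA is copied. The mTOR complex that rapamycin inhibits is known to favour nucleotide synthesis, through phosphorylation of the CAD enzyme and through ATF4 and the mitochondrial folate enzymes.

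The cell line labels carried a doubt that bears on every comparison of the lines. In a check on transcripts outside these 35 genes, 6 of 12 libraries did not match their labelled cell line, and these were the 6 libraries labelled SK-MEL-28. That check asked only which of the transcripts was higher, with no minimum level. It cannot tell other cells from cells of the labelled line that have lost such a transcript. The 6 libraries are given below as labelled, and which cells they come from was not tested further. Log2 CPM (CPM, counts scaled by TMM to a common library size) correlated across genes at 0.9577 to 0.9700 between libraries of the 2 labels. Within a label it correlated at 0.9771 to 0.9810 across treatments, and within a group at 0.9833 to 0.9856. Of 10 genes of the melanocyte lineage, the transcription factor gene SOX10 was the most abundant under both labels, with 448, 480.1 and 368 CPM in A375 with etoposide, and the pigment genes TYR and MLANA stood at no more than 1.37 CPM in any library, with MLANA at 0.818, 0.961 and 1.05 CPM in A375 with etoposide and 1.37, 1.26 and 0.971 CPM in the libraries labelled SK-MEL-28 with etoposide. TYR stood there at 0.196, 0 and 0.0702 and 0.0653, 0 and 0.0607 CPM. The 10 genes summed to 496 to 612 CPM in A375 with etoposide and 436 to 562 CPM in the libraries labelled SK-MEL-28 with etoposide. Of the 9 that could be tested, 4 differed between the labels under etoposide: MITF (0.56), TYRP1 (1.42) and DCT (1.29) were higher under the SK-MEL-28 label and PAX3 (-0.39) lower on the log2 scale, 44.4% against 31.8% of all genes, the largest edgeR adjusted p being 0.00419. The response within A375 does not rest on the doubtful libraries. A comparison of the labels is one between groups of libraries that may not be of different cell lines, and cell line, culture and handling cannot be told apart in it.

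The promoters shown are those of the 4 deoxynucleotide genes that rose with rapamycin in at least one of the cell lines, and the stretch between PPAT and PAICS, a pair of purine genes that start back to back. They come from RefSeq (GRCh38.p14), in which 32 of the 35 genes had an entry, and each is written 5′ to 3′ on the gene's own strand up to the base before the start of transcription. Capitals mark an E2F element (TTCCCGC, or GCGGGAA on the other strand) or a CCAAT box (CCAAT, or ATTGG on the other strand). The RRM1 entry (chr11:4094435-4094684, forward strand) is the full 250 bases, because its E2F element lies 223 bases before the start, which is itself 114 bases before the start of the canonical GENCODE 44 transcript. Those of RRM2 (chr2:10122589-10122738, forward strand), TYMS (chr18:657503-657652, forward strand) and TK1 (chr17:78187053-78187202, reverse strand) are the last 150 bases.
RRM1: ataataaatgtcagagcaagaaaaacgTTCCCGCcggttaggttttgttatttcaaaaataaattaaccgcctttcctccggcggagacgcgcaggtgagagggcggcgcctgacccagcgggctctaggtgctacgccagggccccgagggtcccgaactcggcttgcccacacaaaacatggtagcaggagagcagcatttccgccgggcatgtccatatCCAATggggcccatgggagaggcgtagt
RRM2: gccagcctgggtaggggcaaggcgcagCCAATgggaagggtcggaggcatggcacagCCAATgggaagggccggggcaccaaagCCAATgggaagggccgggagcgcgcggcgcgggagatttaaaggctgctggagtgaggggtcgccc
TYMS: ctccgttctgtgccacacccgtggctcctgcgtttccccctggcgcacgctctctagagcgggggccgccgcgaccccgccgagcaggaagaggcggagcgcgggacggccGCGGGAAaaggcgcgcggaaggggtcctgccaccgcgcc
TK1: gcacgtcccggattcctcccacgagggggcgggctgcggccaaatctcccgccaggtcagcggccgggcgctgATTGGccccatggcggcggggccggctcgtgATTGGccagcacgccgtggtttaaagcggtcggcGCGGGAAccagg
PPAT-PAICS: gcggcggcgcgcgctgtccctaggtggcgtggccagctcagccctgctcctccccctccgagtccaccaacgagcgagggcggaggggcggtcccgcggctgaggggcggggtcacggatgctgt

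E2F elements of either form searched (TTCCCGC or TTGGCGC, both strands) stood in 4 of the 6 deoxynucleotide promoters, those of RRM1, TYMS, TK1 and DCK, and in 7.81% of 35116 promoters of the same 250 bases. Over all arms they stood in 8 of 32, the others being GART and PAICS of the purine arm and RPIA and PRPS2 of the pentose phosphate arm. The elements of TYMS and TK1 lay 39 and 12 bases before the start. RRM2 held no match to either form, but it held 3 CCAAT boxes, 123, 93 and 66 bases before its start, and TK1 held 2. A CCAAT box was found in 17 of the 32 promoters and in 32.0% of all promoters, among them all 4 folate entries and 6 of 8 pentose phosphate entries. E-boxes (CACGTG) were in 5 of 32 promoters (6.35% of all), and the ATF4 composite element (TGATGNA) in MTHFD1 alone of the 32 (8.41% of all). The PPAT-PAICS stretch (chr4:56435616-56435740, written on the forward strand, from the first base outside PPAT to the last before PAICS) is 125 bases long with 76% G and C, and none of these letters occurs in it. It is bounded by the outermost transcripts of GENCODE 44. The RefSeq starts lie farther apart, at 56435615 for PPAT and 56436260 for PAICS, and between them stand an E-box 182 bases before the PPAT start and an E2F element 166 bases before the PAICS start. A match of letters is a description, and binding was not measured.

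Levels were compared between genes as CPM per kilobase of the canonical transcript. IMPDH2, which makes the precursor of guanine nucleotides, and TKT, the transketolase of the pentose phosphate pathway, led in A375 with etoposide, at 208 ± 10.7 and 198 ± 1.6 CPM per kilobase (SD, n = 3). These means differed by less than the spread of the IMPDH2 libraries. NME1 followed at 159.9 ± 10.7, then PGLS at 102 ± 5.31 and TALDO1 at 96.4 ± 3.52, the last pair about one SD apart. SHMT2, the mitochondrial serine hydroxymethyltransferase, was the highest folate gene at 59.97 ± 1.03, TYMS the highest deoxynucleotide gene at 36.5 ± 2.3 and CTPS1 the highest pyrimidine gene at 18 ± 0.976. The lowest of the 35 were DHODH (2.57 ± 0.113), CTPS2 (3.66 ± 0.282) and DCK (4.91 ± 0.385). NME1 and DCK share assembled loci with other rows, which held 263% and 301% of their mean counts. Their places in this order depend on how reads were divided. The same gene led each arm in all 4 groups.

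**Figure D1:**
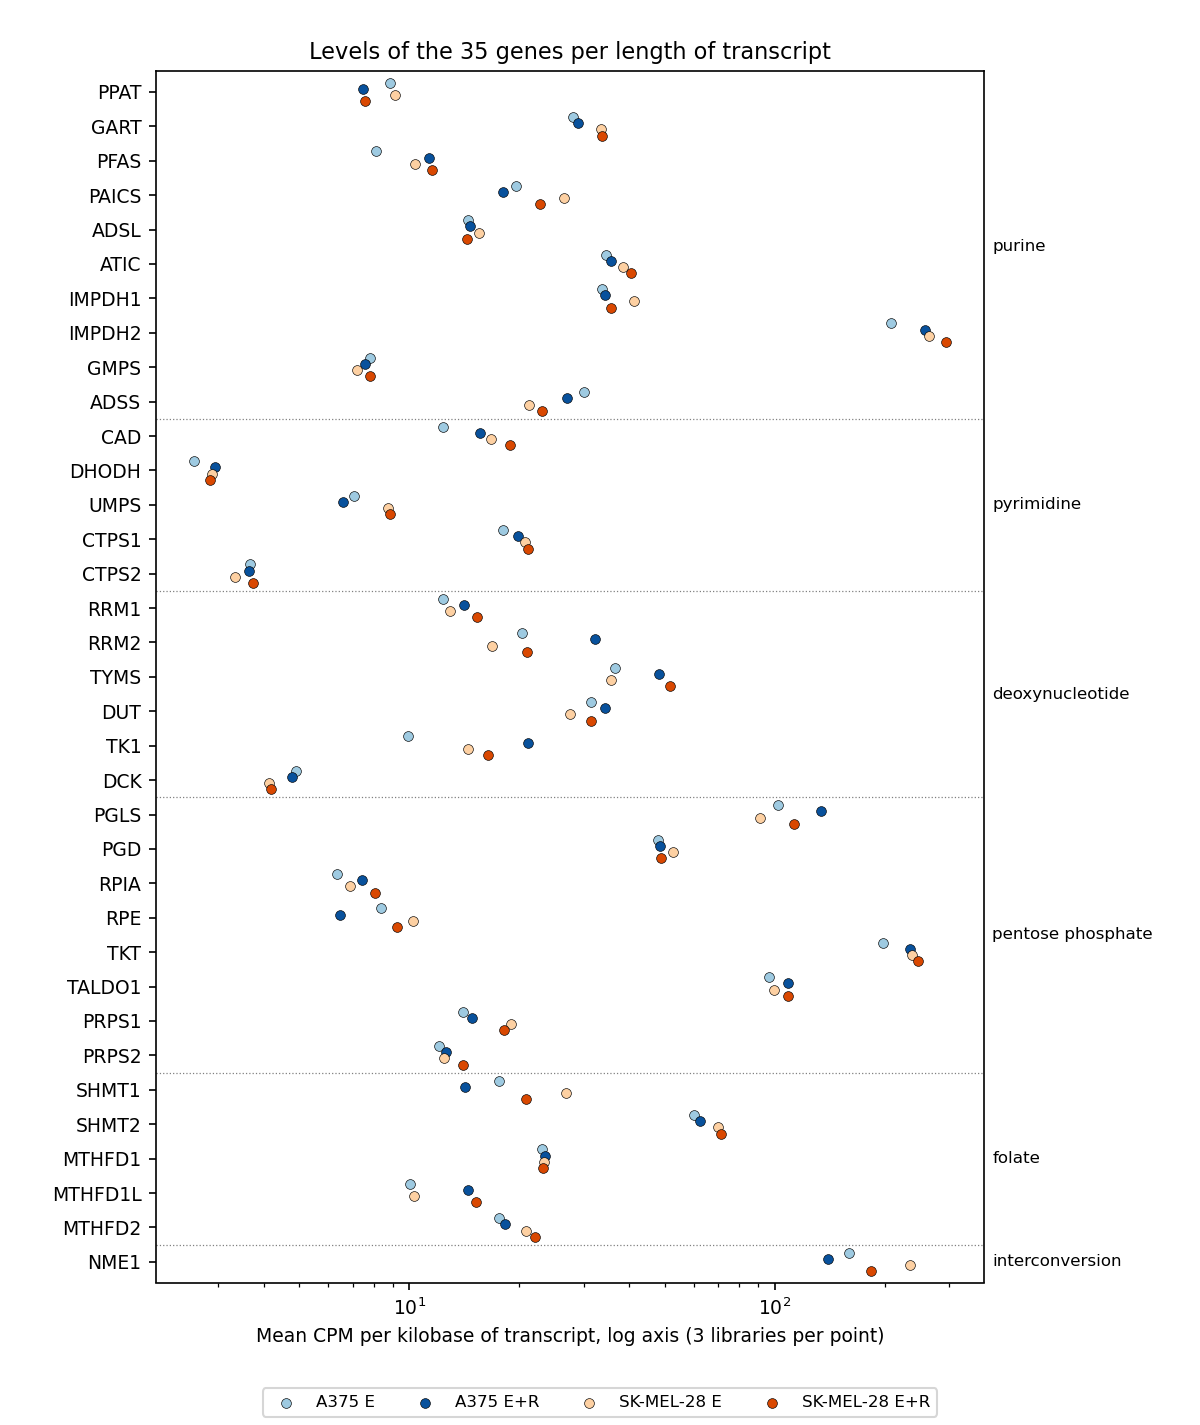
Mean CPM per kilobase of transcript on a log axis for the 35 genes by arm, one point per group of 3 libraries (E, etoposide; E+R, etoposide + rapamycin; labels as deposited). IMPDH2 and TKT lie farthest to the right and DHODH and CTPS2 farthest to the left in every group.

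Paralogs were unequal in level. In A375 with etoposide IMPDH2 stood at 208 ± 10.7 CPM per kilobase and its paralog IMPDH1 at 33.6 ± 0.853. CTPS1, which makes CTP, stood at 18 ± 0.976 and CTPS2 at 3.66 ± 0.282. SHMT2 stood at 59.97 ± 1.03 and the cytosolic SHMT1 at 17.6 ± 0.807. By contrast PRPS1 and PRPS2, the synthetases of activated ribose, were closer, at 14.1 ± 0.951 and 12.1 ± 0.756. Among the MTHFD genes the cytosolic MTHFD1 stood at 23 ± 1.28, and the mitochondrial MTHFD2 and MTHFD1L at 17.6 ± 0.52 and 10.04 ± 0.685. Pseudogene rows named after a member held at most 2.03% of that member's mean count (PRPS1).

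With rapamycin added to etoposide, 4 of the 6 deoxynucleotide genes rose in A375 and 3 of 6 in the libraries labelled SK-MEL-28, and none fell. In the purine and folate arms some genes rose and others fell, as they did in the pentose phosphate arm in A375. In A375, 11 of the 35 genes rose and 4 fell at an adjusted p under 0.05 (edgeR quasi-likelihood test, Benjamini-Hochberg over all 18844 genes tested), which is 42.9% of them against 28.1% of all genes (14.3% higher and 13.8% lower). In the libraries labelled SK-MEL-28, 7 rose and 5 fell, 34.3% against 19% of 18897 genes (8.83% higher and 10.1% lower). Leaving out 1 library gave 7 to 11 members, with 7 without etoposide + rapamycin replicate 3 or etoposide replicate 3. All 35 passed the filter on low counts in every comparison. With a fold change over 1.5 asked for as well, 2 members were left in A375, RRM2 and TK1 (background 5.89%, with 3.09% higher and 2.8% lower). In the libraries labelled SK-MEL-28 none were left (background 4.99%, with 1.85% higher and 3.14% lower), and DESeq2 called 0 there as well. In what follows "rose" and "fell" mean an adjusted p under 0.05 by edgeR. In bulk RNA, fewer cells of a type and less RNA per cell cannot be told apart.

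The median log2 fold change of the 35 was 0.06 in A375 and 0.07 in the libraries labelled SK-MEL-28, beside -0.0051 and 0.0053 over all genes tested. By arm, deoxynucleotide genes had a median of 0.30 and 0.22. The pentose phosphate arm had 0.13 and 0.09, and the pyrimidine arm 0.15 and 0.03. The purine arm, at 0.03 and 0.04, and the folate arm, at 0.06 and 0.02, lay close to the median of all genes. In A375 2 of 10 purine genes rose and 1 fell, 1 of 5 pyrimidine genes rose, 3 of 8 pentose phosphate genes rose and 1 fell, and 1 of 5 folate genes rose and 1 fell. Under the SK-MEL-28 label 1 of 10 purine, 1 of 5 pyrimidine, 1 of 8 pentose phosphate and 1 of 5 folate genes rose, and 3 purine and 1 folate gene fell. Against 28.1% of all genes past the adjusted p in A375, the share was 66.7% of deoxynucleotide, 50% of pentose phosphate and 40% of folate genes, near that background for purine genes (30%) and below it for pyrimidine genes (20%). Under the other label, against 19%, it was 50% of deoxynucleotide, 40% of purine and 40% of folate genes, near the background for pyrimidine genes (20%) and below it for pentose phosphate genes (12.5%). NME1 fell under both labels.

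**Figure D2:**
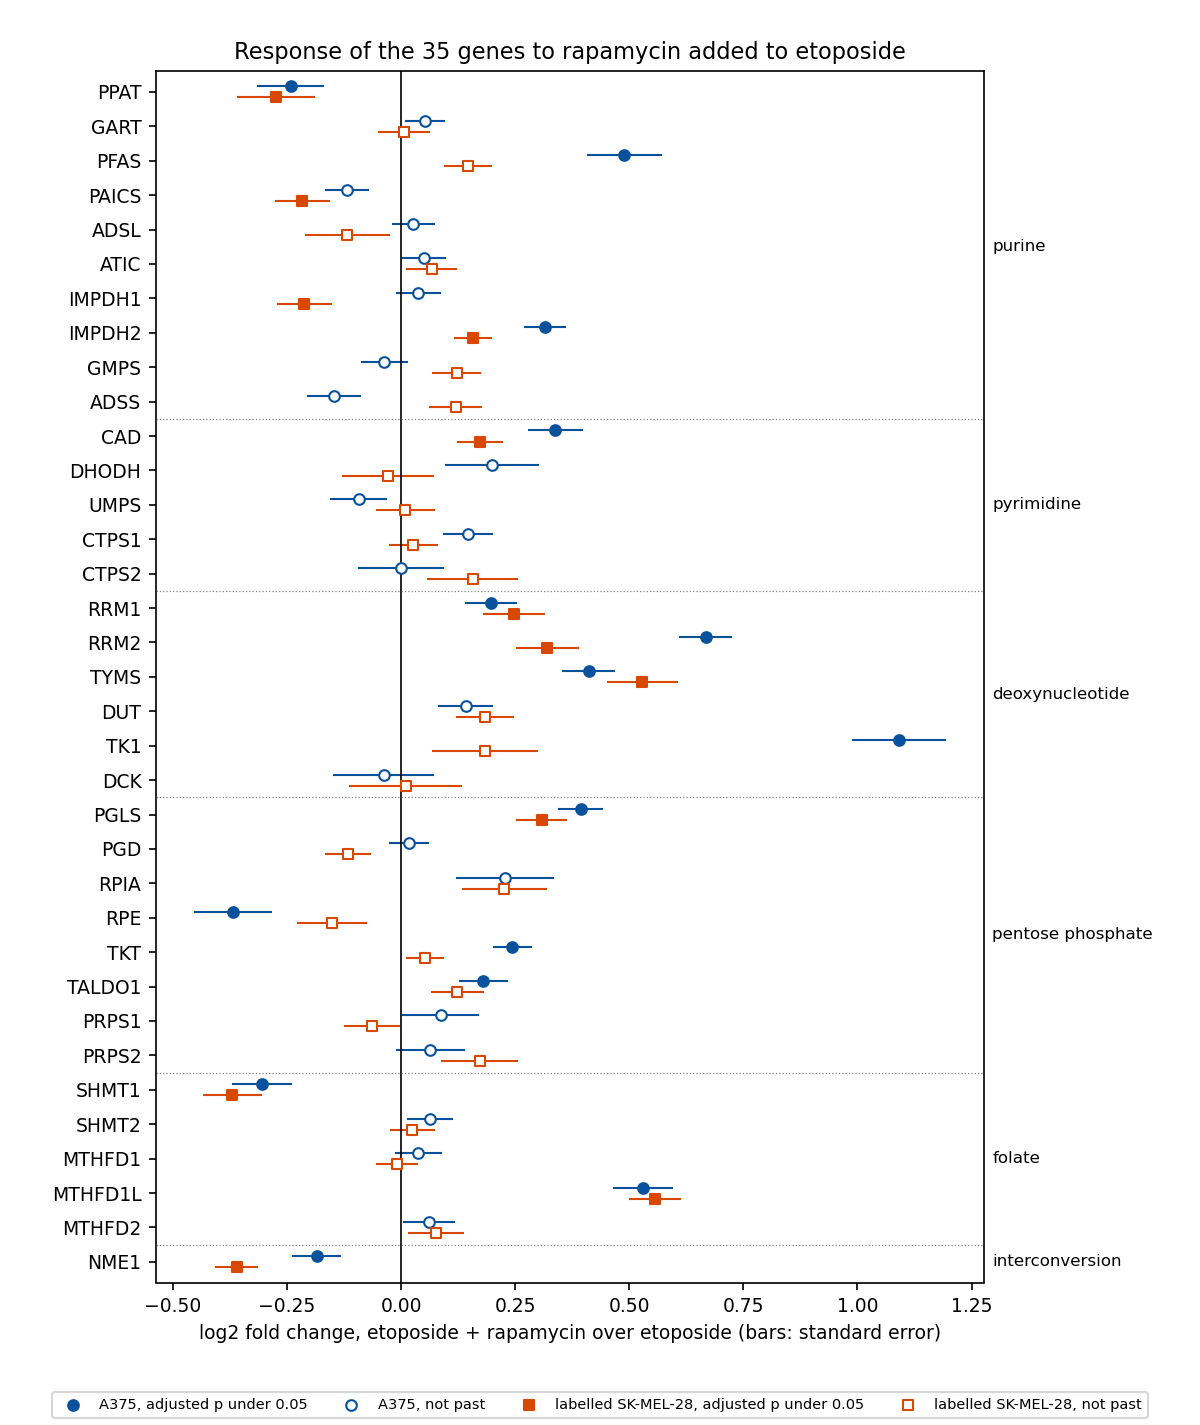
Log2 fold change of etoposide + rapamycin over etoposide (bars, standard error) for each of the 35 genes by arm, in A375 (circles) and in the libraries labelled SK-MEL-28 (squares), filled where the adjusted p was under 0.05. TK1 in A375 lies farthest right at 1.09, and SHMT1 and NME1 lie left of 0 under both labels.

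Of the 35 members, 10 moved past the threshold in the same direction under both labels, and none in opposite directions; all genes tested under both gave 10.8% and 0.436%. IMPDH2, CAD, RRM1, RRM2, TYMS, PGLS and MTHFD1L rose, and PPAT, SHMT1 and NME1 fell. Another 5 passed in A375 alone (PFAS, TK1, RPE, TKT and TALDO1) and 2 in the libraries labelled SK-MEL-28 alone (PAICS and IMPDH1), and only for TK1 did the test of the difference pass. The other 18 passed under neither label: GART, ADSL, ATIC, GMPS, ADSS, DHODH, UMPS, CTPS1, CTPS2, DUT, DCK, PGD, RPIA, PRPS1, PRPS2, SHMT2, MTHFD1 and MTHFD2. Over these 18 the 95% intervals of the log2 fold change ran from -0.28 (DCK) to 0.46 (RPIA) in A375 and from -0.32 (ADSL) to 0.43 (RPIA) under the SK-MEL-28 label.

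Markers of other cell types stood low, apart from a few genes, and some of them and of the melanocyte genes moved with rapamycin. In A375 without and with rapamycin the 5 keratinocyte genes summed to 9.48 to 10.4 and 7.24 to 10.1 CPM, nearly all of it KRT14, the 5 fibroblast genes to 25.1 to 28.6 and 20.9 to 25 CPM, the 5 leukocyte genes, nearly all of it LYZ and CD68, to 39.9 to 53.2 and 39.5 to 59.4 CPM and the 5 endothelial genes to 84.7 to 96 and 62.1 to 64.9 CPM, most of it KDR. Under the SK-MEL-28 label the keratinocyte and fibroblast genes summed to 6.71 to 8.16 and 4.997 to 6.27 CPM and 40.3 to 45.9 and 35.9 to 37.5 CPM. The leukocyte and endothelial genes summed there to 53.4 to 55.3 and 40.7 to 59.9 CPM and 65.8 to 69.95 and 68.3 to 73.5 CPM. Of these lists KRT5, COL1A2, PTPRC and CLDN5 were each under 1 CPM in every library, while KRT14, LYZ, CD68 and KDR held most of the sums given for A375. Among the leukocyte genes CD68 rose under both labels, at 0.53 ± 0.17 (edgeR adjusted p = 0.0314) and 0.64 ± 0.20 (edgeR adjusted p = 0.0384). LYZ fell under both labels, at -1.32 ± 0.11 (edgeR adjusted p = 4.93e-06) and -0.85 ± 0.10 (edgeR adjusted p = 7.90e-05), and LUM likewise, at -0.73 ± 0.16 (edgeR adjusted p = 0.00502) and -0.66 ± 0.11 (edgeR adjusted p = 0.000806). DCN fell in A375, at -0.63 ± 0.18 (edgeR adjusted p = 0.0172), and had -0.58 ± 0.29 under the SK-MEL-28 label. PECAM1 fell under that label, at -0.70 ± 0.23 (edgeR adjusted p = 0.0488), and had -0.38 ± 0.16 in A375. Of the melanocyte genes tested, 3 of 9 fell in A375 (median -0.35) and 1 of 9 under the SK-MEL-28 label (median -0.16). That is 33.3% against 28.1% of all genes in A375, near the background. Under the SK-MEL-28 label it is 11.1% against 19%, below it. MITF fell under both labels, at -0.51 ± 0.10 (edgeR adjusted p = 0.00248) and -0.50 ± 0.10 (edgeR adjusted p = 0.0032). DCT and S100B fell in A375, at -1.70 ± 0.43 (edgeR adjusted p = 0.0106) and -0.58 ± 0.06 (edgeR adjusted p = 4.13e-05), and had 0.11 ± 0.27 and -0.16 ± 0.08 under the SK-MEL-28 label, and both passed the test of the difference (1.82 ± 0.45 (edgeR adjusted p = 0.0257) and 0.42 ± 0.11 (edgeR adjusted p = 0.0354)). KDR fell in A375, at -0.52 ± 0.05 (edgeR adjusted p = 2.50e-05), and had 0.11 ± 0.05 under the SK-MEL-28 label, and it passed the test of the difference, at 0.64 ± 0.08 (edgeR adjusted p = 0.000155). The part of these markers in the members' values was not tested.

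TK1 (cytosolic thymidine kinase, which salvages thymidine; chr17:78174091-78187233, reverse strand) changed most in A375. Its 3 etoposide libraries had 13, 13.1 and 16.5 CPM and its 3 libraries with rapamycin 28.3, 30.9 and 31.4 CPM. The groups did not overlap, as was so for 22 of the 35 members and 42.6% of all genes, and the log2 fold change was 1.09 ± 0.10 (edgeR adjusted p = 1.22e-05). In the libraries labelled SK-MEL-28 the values were 22.8, 19.9 and 19.2 CPM without and 19.9, 27.7 and 23 CPM with rapamycin. Those groups overlapped, and the log2 fold change was 0.18 ± 0.12 (edgeR adjusted p = 0.31).

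RRM2 (the R2 subunit of ribonucleotide reductase; chr2:10120698-10211725, forward strand) had 61.8, 66.8 and 69.9 CPM with etoposide and 111, 104 and 98.9 CPM with rapamycin added in A375. It rose by 0.67 ± 0.06 (edgeR adjusted p = 7.20e-06) on the log2 scale, with every treated library above every control. Under the SK-MEL-28 label it went from 53.7, 56.8 and 53.6 to 60.8, 70.6 and 73.9 CPM, again without overlap (16 of the 35 members and 35.9% of all genes), a log2 fold change of 0.32 ± 0.07 (edgeR adjusted p = 0.005996). Its large-subunit partner RRM1 (chr11:4094707-4138932, forward strand) went from 38.5, 37.7 and 40.1 to 44.5, 43.9 and 44.4 CPM in A375 and from 44.7, 38.5 and 38.4 to 48.1, 47.3 and 49.2 CPM under the SK-MEL-28 label. RRM1's log2 fold changes were 0.20 ± 0.06 (edgeR adjusted p = 0.0196) and 0.25 ± 0.07 (edgeR adjusted p = 0.024). In A375 it no longer passed without etoposide + rapamycin replicates 1, 2 or 3 or without etoposide replicate 2 (log2 0.18 to 0.22 over the 6 fits that left out a library, largest edgeR adjusted p = 0.0751), and with scaling by library totals (largest adjusted p = 0.0625); with the SK-MEL-28 label it no longer passed without etoposide + rapamycin replicates 1 or 3 or without etoposide replicates 2 or 3 (log2 0.21 to 0.33 over the 6 fits that left out a library, largest edgeR adjusted p = 0.103), and with a filter of only 1 count (largest adjusted p = 0.0598).

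TYMS (thymidylate synthase, which makes thymidylate with a folate cofactor; chr18:657653-673578, forward strand) rose under both labels. It had 54.6, 61.1 and 60.9 CPM with etoposide and 80.2, 74.5 and 79.2 CPM with rapamycin added in A375, and 50.6, 61.3 and 61 against 75.4, 88.3 and 86.3 CPM under the SK-MEL-28 label. No groups overlapped, and the log2 fold changes were 0.41 ± 0.06 (edgeR adjusted p = 0.00024) and 0.53 ± 0.08 (edgeR adjusted p = 0.000479). On the other strand TYMS overlaps ENOSF1, at 25.2 ± 3.99 CPM (SD, n = 3) in A375 with etoposide, and strand use in counting is not given in the sources used here. The ENOSF1 row had log2 fold changes of -0.09 ± 0.11 and 0.05 ± 0.07, neither past the test. DUT, which removes dUTP, had 0.14 ± 0.06 and 0.18 ± 0.06, also not past it (adjusted p = 0.106 and 0.0617 by edgeR). DCK, the deoxycytidine kinase, had -0.04 ± 0.11 and 0.01 ± 0.12, and shares its assembled locus with MOB1B, so how reads were divided between them is uncertain.

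**Figure D3:**
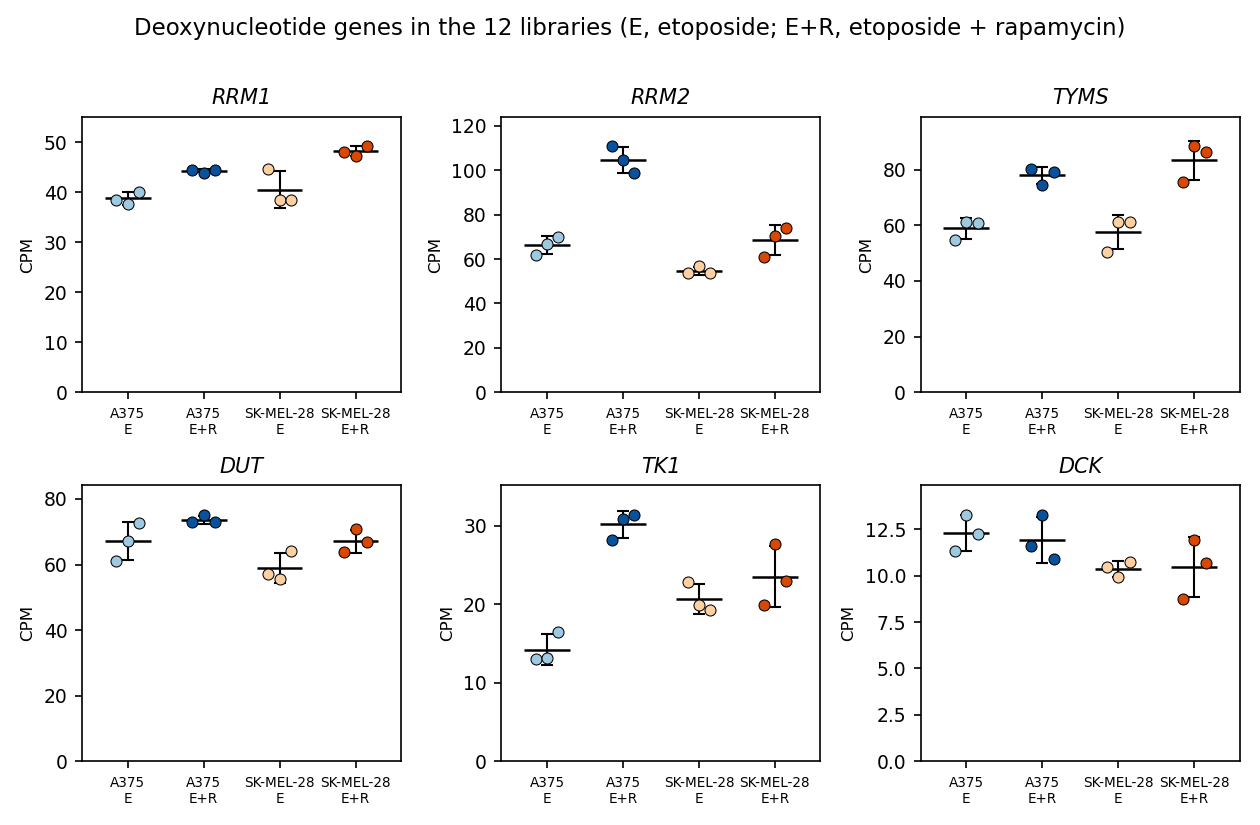
CPM of the 6 deoxynucleotide genes in the 12 libraries (points), with group mean and SD (bars, n = 3), by cell line label and treatment. TK1 separates clearly by treatment in A375 and overlaps under the SK-MEL-28 label, while RRM2 and TYMS are higher with rapamycin under both and DCK is not.

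In the pentose phosphate arm PGLS, the lactonase of the oxidative branch (chr19:17511636-17521288, forward strand), rose under both labels. It went from 97.1, 104 and 108 to 136, 133 and 135 CPM in A375 and from 85.6, 95.3 and 94.2 to 109, 115 and 117 CPM under the SK-MEL-28 label. No groups overlapped, and the log2 fold changes were 0.39 ± 0.05 (edgeR adjusted p = 9.61e-05) and 0.31 ± 0.06 (edgeR adjusted p = 0.00216). The next oxidative enzyme, PGD, had 0.02 ± 0.04 and -0.12 ± 0.05, neither past the test.

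The sugar-rearranging enzymes of the same pathway differed. TKT had 593, 599 and 589 CPM without and 678, 694 and 729.9 CPM with rapamycin in A375, apart from each other, and rose by 0.24 ± 0.04 (edgeR adjusted p = 0.00106); under the SK-MEL-28 label it had 0.05 ± 0.04 (adjusted p = 0.423). TALDO1, the transaldolase, rose in A375 by 0.18 ± 0.05 (edgeR adjusted p = 0.0248), but it no longer passed without etoposide + rapamycin replicates 2 or 3 or without etoposide replicates 1 or 3 (log2 0.15 to 0.23 over the 6 fits that left out a library, largest edgeR adjusted p = 0.1001), and with scaling by library totals or a filter of only 1 count (largest adjusted p = 0.0751). RPE, the epimerase, went the other way in A375, from 25.4, 29.1 and 25.5 to 21.7, 20.4 and 19.7 CPM, with no overlap and a log2 fold change of -0.37 ± 0.09 (edgeR adjusted p = 0.00663). The RPE groups overlapped under the SK-MEL-28 label, at -0.15 ± 0.08. RPIA, the isomerase, had 0.23 ± 0.11 and 0.23 ± 0.09, and PRPS1 and PRPS2 lay between -0.06 and 0.17 in both comparisons, none past the test.

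The purine arm held members that went opposite ways. PPAT, the amidotransferase that commits ribose to purines (chr4:56393362-56435615, reverse strand), fell under both labels: it had 31.9, 31.7 and 34.3 CPM without and 27.3, 26.3 and 28.9 CPM with rapamycin in A375. In the libraries labelled SK-MEL-28 the values were 37.5, 30.04 and 33.2 and 28.1, 28.7 and 26.8 CPM. Neither pair of groups overlapped, and the log2 fold changes were -0.24 ± 0.07 (edgeR adjusted p = 0.0256) and -0.27 ± 0.09 (edgeR adjusted p = 0.0405). In A375 it no longer passed without etoposide + rapamycin replicates 1 or 2 or without etoposide replicate 3 (log2 -0.28 to -0.21 over the 6 fits that left out a library, largest edgeR adjusted p = 0.0998), and with a filter of only 1 count (largest adjusted p = 0.0519); under the SK-MEL-28 label it no longer passed without etoposide + rapamycin replicates 1, 2 or 3 or without etoposide replicates 1 or 3 (log2 -0.35 to -0.19 over the 6 fits that left out a library, largest edgeR adjusted p = 0.16), and with a filter of only 1 count (largest adjusted p = 0.094). Its neighbour PAICS, which makes a later purine intermediate and is read the other way (chr4:56435741-56464578, forward strand), had -0.12 ± 0.05 in A375, not past the test (adjusted p = 0.0883 by edgeR), and changed by -0.22 ± 0.06 (edgeR adjusted p = 0.0249) under the SK-MEL-28 label. As to PAICS, it no longer passed without etoposide + rapamycin replicates 1 or 3 or without etoposide replicates 1, 2 or 3 (log2 -0.26 to -0.15 over the 6 fits that left out a library, largest edgeR adjusted p = 0.0871), and with a filter of only 1 count (largest adjusted p = 0.0643).

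PFAS, which adds nitrogen in the middle of purine synthesis (chr17:8247618-8270491, forward strand), rose in A375 from 47.4, 44.3 and 38.7 to 58.8, 56.5 and 67.4 CPM, groups without overlap and a log2 fold change of 0.49 ± 0.08 (edgeR adjusted p = 0.000914). With the SK-MEL-28 label it had 56.1, 54.9 and 56.3 and 59.9, 60.5 and 65.2 CPM, groups that did not overlap either, but at 0.15 ± 0.05 it did not pass (adjusted p = 0.0737 by edgeR). CTC1, which overlaps PFAS on the other strand, had 0.17 ± 0.08 and 0.20 ± 0.09. IMPDH2 (chr3:49024325-49029447, reverse strand) had 325, 361 and 342 CPM without and 432, 419 and 424 CPM with rapamycin in A375, and 433, 433 and 441 against 482, 491 and 488 CPM under the SK-MEL-28 label. It rose by 0.32 ± 0.05 (edgeR adjusted p = 0.000359) and 0.16 ± 0.04 (edgeR adjusted p = 0.0197), with no overlap in either, and under the SK-MEL-28 label it no longer passed without etoposide + rapamycin replicate 3 or without etoposide replicates 2 or 3 (log2 0.15 to 0.17 over the 6 fits that left out a library, largest edgeR adjusted p = 0.075), and with scaling by library totals (largest adjusted p = 0.0586). Its paralog IMPDH1 did not share this: it had 0.04 ± 0.05 in A375, and under the SK-MEL-28 label it fell, at -0.21 ± 0.06 (edgeR adjusted p = 0.0253), though it no longer passed without etoposide + rapamycin replicates 1 or 2 or without etoposide replicates 2 or 3 (log2 -0.26 to -0.17 over the 6 fits that left out a library, largest edgeR adjusted p = 0.113), and with a filter of only 1 count (largest adjusted p = 0.0678). GART, ADSL, ATIC, GMPS and ADSS lay between -0.15 and 0.12 under both labels and none passed the test. ADSL shares its assembled locus with SGSM3 and AL022238.4, whose rows together held 132% of ADSL's mean count, so how reads were divided among them is uncertain. The SGSM3 row had -0.08 ± 0.10 in A375 and fell under the SK-MEL-28 label, at -0.42 ± 0.12 (edgeR adjusted p = 0.0287).

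Of the pyrimidine genes only CAD, which encodes the enzyme that starts the pathway (chr2:27217369-27243943, forward strand), passed the test. It had 98.9, 86.1 and 86 CPM without and 109, 115 and 117 CPM with rapamycin in A375, and 117, 126 and 122 against 141, 134 and 137 CPM under the SK-MEL-28 label, each pair without overlap. It rose by 0.34 ± 0.06 (edgeR adjusted p = 0.00124) and 0.17 ± 0.05 (edgeR adjusted p = 0.0315) on the log2 scale. Under the second label it no longer passed without etoposide + rapamycin replicates 1 or 3 or without etoposide replicates 1 or 3 (log2 0.15 to 0.20 over the 6 fits that left out a library, largest edgeR adjusted p = 0.0897), and with scaling by library totals or a filter of only 1 count (largest adjusted p = 0.0743). CTPS1 had 0.15 ± 0.06 and 0.03 ± 0.05, and CTPS2 0.00 ± 0.09 and 0.16 ± 0.10, none past the test. With DHODH and UMPS they lay between -0.09 and 0.20 under both labels.

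The folate genes were led by MTHFD1L, the mitochondrial formate-producing synthetase (chr6:150865679-151101887, forward strand). In A375 it had 37.1, 34.4 and 32.4 CPM without and 48, 49.9 and 51.7 CPM with rapamycin, and under the SK-MEL-28 label 36, 36.1 and 34.5 and 51, 53.3 and 53 CPM. No groups overlapped, and it rose by 0.53 ± 0.07 (edgeR adjusted p = 9.71e-05) and 0.56 ± 0.06 (edgeR adjusted p = 2.45e-05). SHMT1, the cytosolic serine hydroxymethyltransferase (chr17:18327860-18363563, reverse strand), fell: it had 42.3, 45 and 46.2 against 38.3, 34 and 35.5 CPM in A375 and 64.3, 69.8 and 69.5 against 57.3, 51.1 and 49.4 CPM under the SK-MEL-28 label. No groups overlapped, and the log2 fold changes were -0.30 ± 0.07 (edgeR adjusted p = 0.00429) and -0.37 ± 0.06 (edgeR adjusted p = 0.0015). On the other strand SHMT1 overlaps SMCR8, whose row had -0.08 ± 0.06 and -0.15 ± 0.06. SHMT2, the most abundant folate gene, had 0.06 ± 0.05 and 0.02 ± 0.05 (edgeR adjusted p = 0.389 and 0.787). SHMT2, MTHFD1 and MTHFD2 all lay between -0.01 and 0.08 under both labels, none past the test.
NME1, which passes phosphate between nucleotides (chr17:51153559-51162428, forward strand), had 135, 153 and 139 CPM without and 128, 124 and 122 CPM with rapamycin in A375. With the SK-MEL-28 label it had 212, 205 and 209.9 and 163, 165 and 161 CPM. The groups did not overlap, and it fell, at -0.18 ± 0.05 (edgeR adjusted p = 0.0214) and -0.36 ± 0.05 (edgeR adjusted p = 0.000173). In A375 it no longer passed without etoposide + rapamycin replicates 2 or 3 or without etoposide replicate 2 (log2 -0.22 to -0.13 over the 6 fits that left out a library, largest edgeR adjusted p = 0.0905), and with a filter of only 1 count (largest adjusted p = 0.0712). NME1 shares its locus with NME2 and the read-through NME1-NME2, whose rows together held 263% of NME1's mean count, so how reads were divided among them is uncertain. The NME2 row had log2 fold changes of 0.14 ± 0.05 and 0.03 ± 0.05, neither past the test.

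**Figure D4:**
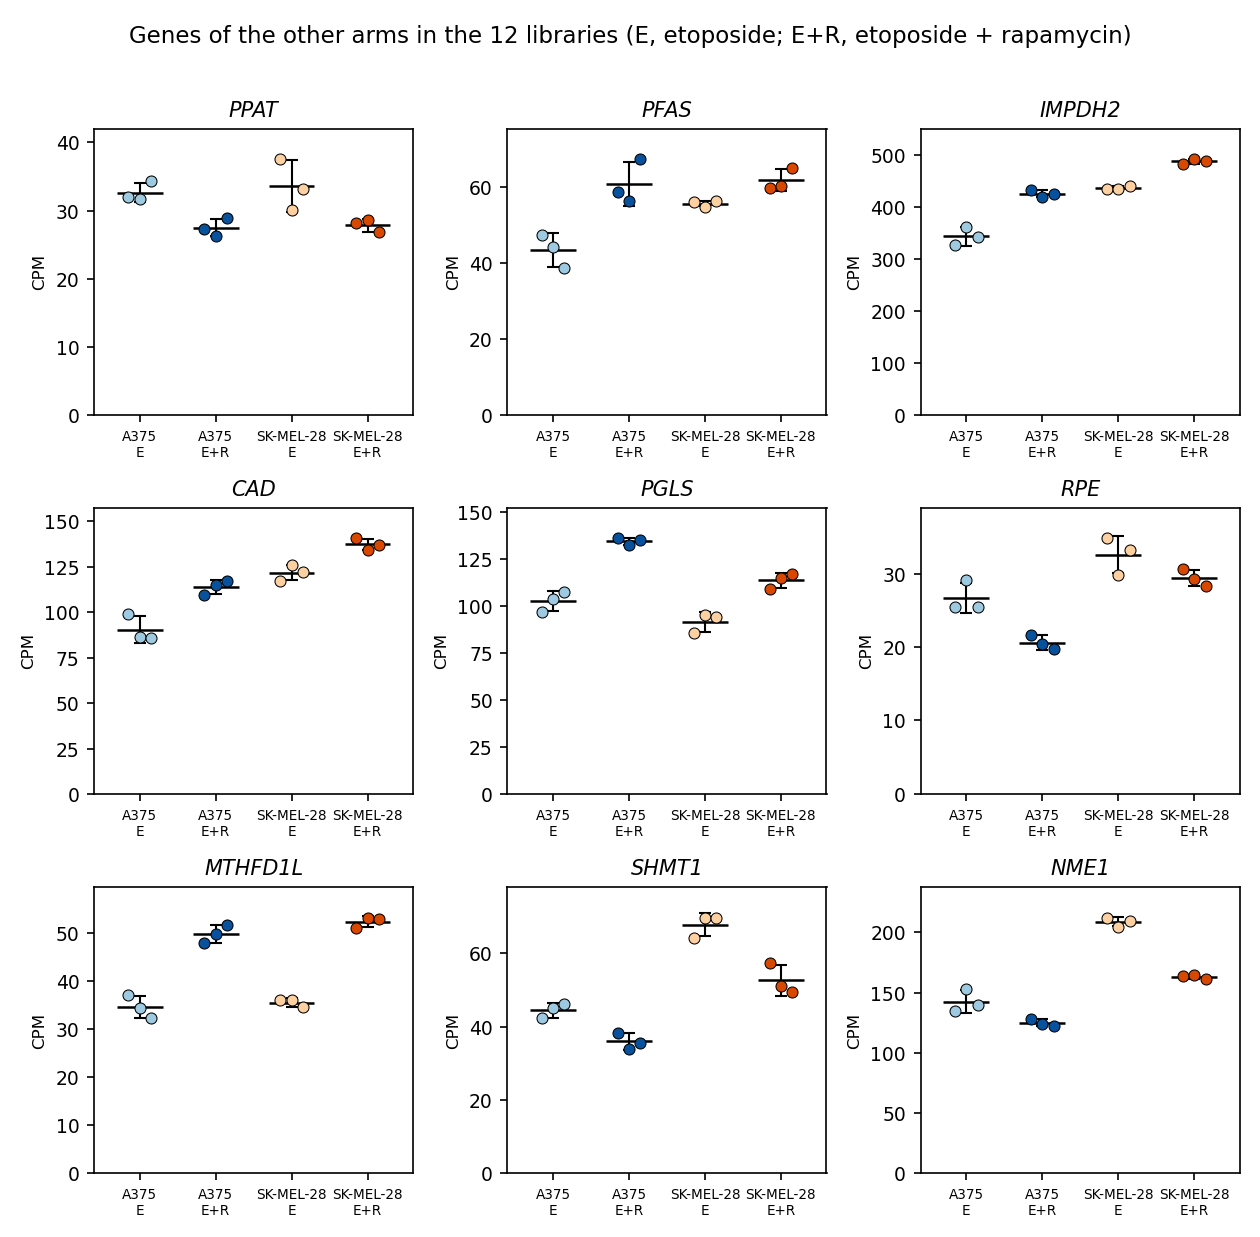
CPM of 9 genes of the other arms in the 12 libraries (points), with group mean and SD (bars, n = 3), by cell line label and treatment. MTHFD1L and PGLS are higher with rapamycin under both labels and SHMT1, NME1 and PPAT lower, while RPE overlaps under the SK-MEL-28 label.

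Whether the response differed between the labels was tested in a fit of all 12 libraries, as the log2 fold change under the SK-MEL-28 label minus that in A375. This comparison shares its libraries with those above and rests on the doubtful labels. Only TK1 passed, against 5.62% of the 20101 genes tested (2.66% higher and 2.97% lower), and with a fold over 1.5 against 1.62% (0.965% lower). The difference was -0.90 ± 0.17 (edgeR adjusted p = 0.00448), with a 95% interval of -1.25 to -0.55, and it passed in all 12 fits that left out a library and all 8 other alternatives. Next came TKT at -0.18 ± 0.05 (edgeR adjusted p = 0.0546) and RRM2 at -0.34 ± 0.10 (edgeR adjusted p = 0.0568), then ADSS at 0.27 ± 0.09 (edgeR adjusted p = 0.0748), PFAS at -0.33 ± 0.11 (edgeR adjusted p = 0.0759) and IMPDH1 at -0.24 ± 0.08 (edgeR adjusted p = 0.081). DESeq2 passed 7 members here, the 6 named here, TK1 included, and IMPDH2. For the genes that moved alike in value, the intervals were -0.14 to 0.21 for MTHFD1L, -0.26 to 0.14 for SHMT1, -0.10 to 0.36 for TYMS and -0.24 to 0.08 for PGLS. These intervals leave room for differences of the size of the smaller responses above.

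**Figure D5:**
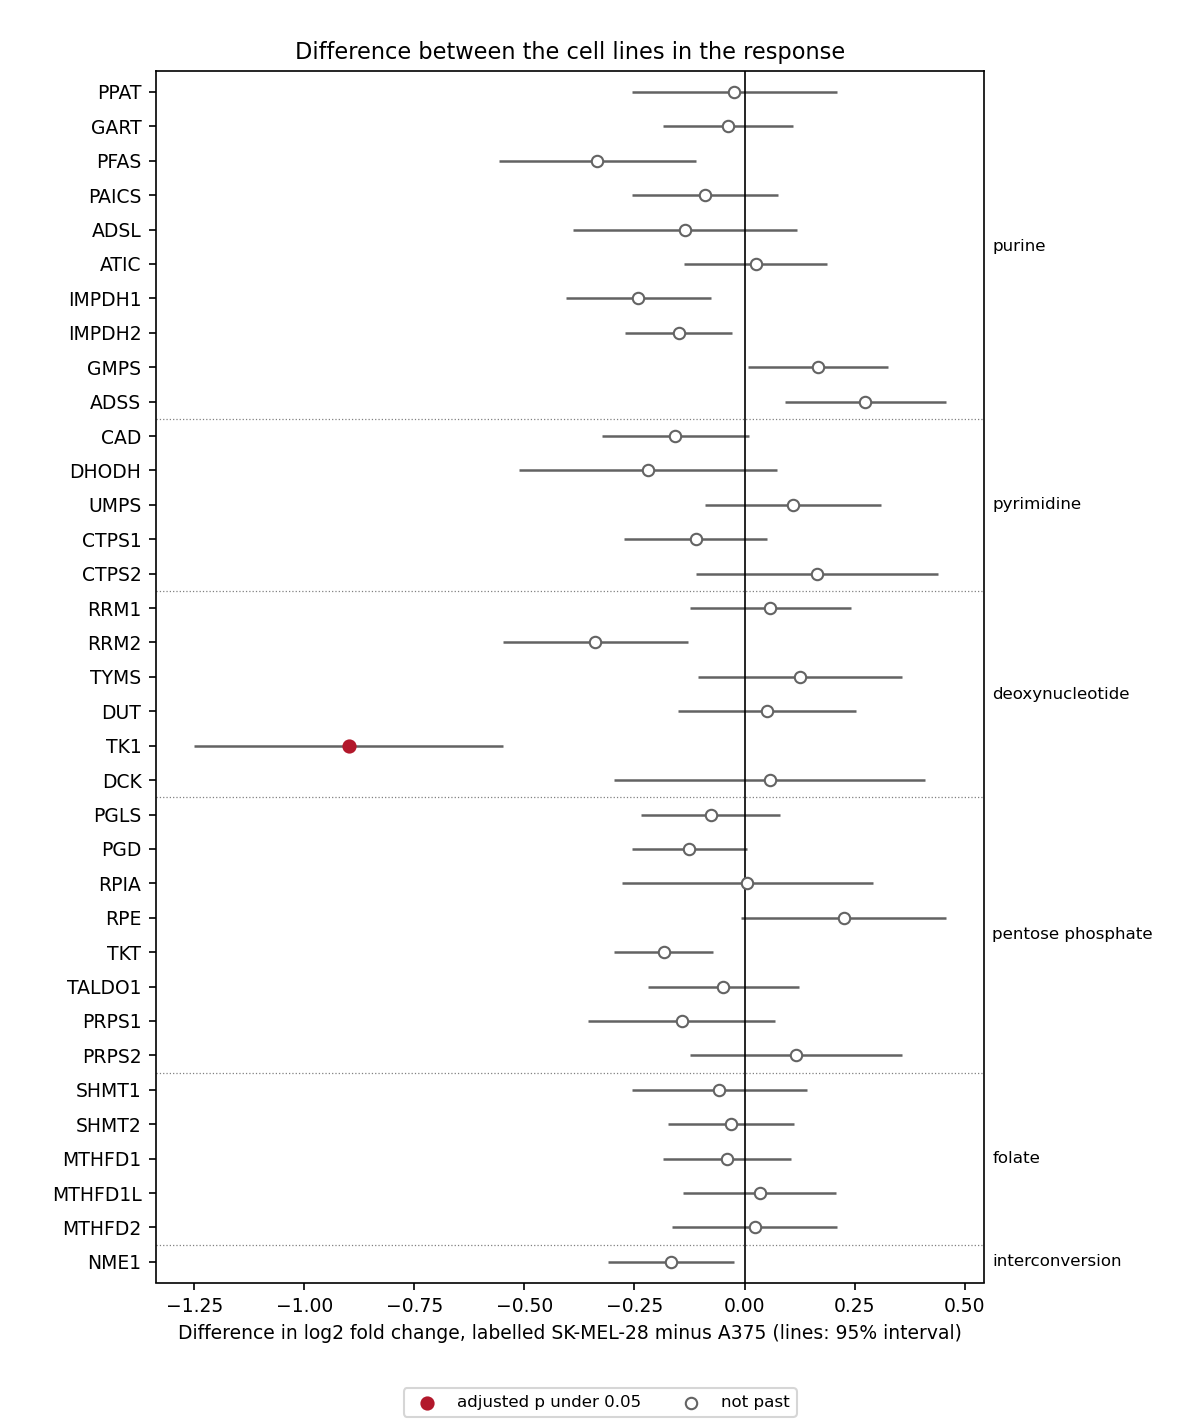
Difference in log2 fold change, libraries labelled SK-MEL-28 minus A375, with its 95% interval, for the 35 genes by arm. The TK1 interval, -1.25 to -0.55, is the only one whose edgeR adjusted p was under 0.05.

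Under etoposide alone the labels also differed, in a comparison that shares the etoposide libraries with those above. Of the 35 genes 18 were higher and 4 lower under the SK-MEL-28 label than in A375, 62.9% against 31.8% of all genes (15.1% higher and 16.7% lower), with a median of 0.15 beside -0.0045. The groups did not overlap for 24 members, against 43.3% of all genes. Only SHMT1 passed with a fold change over 1.5 as well (background 12.5%, with 5.38% higher and 7.16% lower), at 0.61 ± 0.07 (edgeR adjusted p = 1.63e-06), and without A375 etoposide replicate 1 its log2 fold change of 0.58 was under that fold. NME1 was higher by 0.55 ± 0.05 (edgeR adjusted p = 1.14e-07), TK1 by 0.54 ± 0.12 (edgeR adjusted p = 0.00216) and CAD by 0.43 ± 0.06 (edgeR adjusted p = 1.34e-05). ADSS, which makes the precursor of adenine nucleotides, was lower, at -0.50 ± 0.06 (edgeR adjusted p = 6.07e-06), and RRM2 was lower too, at -0.27 ± 0.07 (edgeR adjusted p = 0.00647). Other genes differed between the same libraries. Of 18 mitosis genes 10 were higher and none lower (median 0.35), with CDC20 at 0.64 ± 0.08 (edgeR adjusted p = 9.44e-06) and KIF20A at 0.74 ± 0.15 (edgeR adjusted p = 0.000903), and of 20 S phase genes 1 was higher and 2 were lower (median -0.0011). The S phase regulators E2F1 and E2F2 were lower, at -1.34 ± 0.09 (edgeR adjusted p = 7.27e-09) and -1.01 ± 0.17 (edgeR adjusted p = 0.00023). Among markers of other cell types LUM was higher by 1.81 ± 0.13 (edgeR adjusted p = 1.25e-08), LYZ by 0.93 ± 0.10 (edgeR adjusted p = 2.27e-06) and PDGFRB by 0.36 ± 0.12 (edgeR adjusted p = 0.0278). DCN was lower, at -1.86 ± 0.22 (edgeR adjusted p = 3.66e-06), and so were PECAM1, at -1.22 ± 0.17 (edgeR adjusted p = 3.23e-05), KDR, at -0.38 ± 0.05 (edgeR adjusted p = 3.37e-05), and KRT14, at -0.51 ± 0.14 (edgeR adjusted p = 0.0089). Their part in the members' difference was not tested. Cell line, culture and handling cannot be told apart here.

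Beyond the 35, another 70 genes of nucleotide salvage, breakdown and supply were listed, of which 69 passed the filter in A375. In A375 17 rose and 13 fell, 43.5% against 28.1% of all genes, with a median of -0.01. Under the SK-MEL-28 label 6 of 70 rose and 14 fell, 28.6% against 19%, with a median of 0.01. The largest change with ample counts was a fall of AK4, a mitochondrial adenylate kinase, from 44.4, 36.9 and 43.5 to 24.2, 22.6 and 23.6 CPM in A375 and from 80.02, 76 and 78.7 to 38.1, 37.6 and 38.2 CPM under the SK-MEL-28 label. Its log2 fold changes were -0.82 ± 0.08 (edgeR adjusted p = 1.90e-05) and -1.05 ± 0.05 (edgeR adjusted p = 8.34e-08). UCKL1, a uridine kinase-like gene, rose by 0.58 ± 0.07 (edgeR adjusted p = 0.000131) and 0.67 ± 0.08 (edgeR adjusted p = 6.20e-05). GLDC, of the glycine cleavage system that supplies one-carbon units, changed by -0.50 ± 0.08 (edgeR adjusted p = 0.000746) and -0.70 ± 0.08 (edgeR adjusted p = 5.89e-05). By list, 9 of 30 salvage and kinase genes rose and 4 fell in A375, and 3 rose and 7 fell under the SK-MEL-28 label. Of 10 deoxynucleotide partners and breakdown genes, 4 rose and 1 fell, and 2 rose and 2 fell. Of 9 pentose phosphate partners, 2 rose and 2 fell, and 1 rose and 1 fell. Folate and serine partners had 2 of 20 genes that rose and 6 that fell in A375, 40% against 28.1% of all genes. Under the SK-MEL-28 label none of 21 rose and 4 fell, a share near that of all genes. CDA, the cytidine deaminase, fell under the SK-MEL-28 label (-1.85) and NT5M, a mitochondrial nucleotidase, rose in A375 (0.91), but both rested on few counts, with at most 0.971 and 2.42 CPM in any library.

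RRM2B, an alternative small subunit of ribonucleotide reductase, moved opposite to RRM2. It had 142, 132 and 145 CPM without and 98.9, 106 and 96.8 CPM with rapamycin in A375, and 147, 130.3 and 138 against 112, 117 and 113 CPM under the SK-MEL-28 label. It fell, at -0.47 ± 0.05 (edgeR adjusted p = 4.44e-05) and -0.28 ± 0.06 (edgeR adjusted p = 0.00334). HPRT1, the purine salvage enzyme, had -0.14 ± 0.10 (edgeR adjusted p = 0.316) and -0.23 ± 0.07 (edgeR adjusted p = 0.0414).

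Among 10 genes of transcription factors that act on these pathways, MYCN was not tested because its counts were too low. E2F1, which drives S phase genes, rose by 0.66 ± 0.07 (edgeR adjusted p = 1.80e-05) in A375 and 0.43 ± 0.11 (edgeR adjusted p = 0.0163) under the SK-MEL-28 label, and E2F2 by 0.94 ± 0.16 (edgeR adjusted p = 0.000752) and 1.31 ± 0.21 (edgeR adjusted p = 0.000739). ATF4, which acts on amino acid and folate genes, rose by 0.25 ± 0.05 (edgeR adjusted p = 0.0014) and 0.31 ± 0.06 (edgeR adjusted p = 0.00257). SREBF1, of sterol and lipid synthesis, fell, at -0.32 ± 0.06 (edgeR adjusted p = 0.0011) and -0.57 ± 0.06 (edgeR adjusted p = 3.84e-05). MAX fell in A375 (-0.21) and had -0.03 under the SK-MEL-28 label. MYC (0.07 and 0.34), E2F3 (-0.08 and -0.15) and NFE2L2 (-0.12 and 0.02) did not pass.

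The deoxynucleotide genes moved beside other genes of the cell cycle. All genes tested gave 14.3% higher and 13.8% lower in A375, and 8.83% and 10.1% under the SK-MEL-28 label. Of 20 S phase genes 17 rose and none fell in A375 (median 0.57), and 10 rose and none fell under the SK-MEL-28 label (median 0.31). MCM7, a helicase subunit, rose by 0.92 ± 0.04 (edgeR adjusted p = 9.24e-08) and 0.67 ± 0.07 (edgeR adjusted p = 1.79e-05) and MCM4 by 0.46 ± 0.05 (edgeR adjusted p = 6.33e-05) and 0.24 ± 0.05 (edgeR adjusted p = 0.00668), while PCNA, the polymerase clamp, had -0.10 ± 0.06 and 0.06 ± 0.06 and did not pass. Of 18 mitosis genes 12 rose in A375 (median 0.44), but under the SK-MEL-28 label 1 rose and 4 fell (median -0.04). MKI67 had 1.08 ± 0.06 and 0.01 ± 0.07, CENPF 0.76 ± 0.07 and 0.10 ± 0.10, and TPX2 0.40 ± 0.08 and 0.07 ± 0.08. In the test of the difference, 8 of the 18 mitosis genes (44.4%) and 3 of the 20 S phase genes (15%) were lower, as TK1 was, and none higher, against 5.62% of all genes. Of 13 ATF4 target genes 2 rose and 4 fell in A375 (median 0.08) and 1 rose and 2 fell under the SK-MEL-28 label (median 0.03), and SLC7A5 (0.11 and 0.02), SLC3A2 (0.08 and 0.02) and SLC7A11 (-0.19 and 0.03) were the most abundant. The ATF4 target share past the adjusted p was 46.2% in A375, against 28.1% of all genes. Under the SK-MEL-28 label it was 23.1%, near the 19% of all genes. The part of cell cycle stage in the values of TK1, RRM2 and TYMS was not tested.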

How the data were processed

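PolyA-selected RNA of 12 libraries was sequenced by the authors, who mapped the reads to GRCh38 with HISAT2, estimated expression with StringTie on the Ensembl 90 annotation and used DESeq2. The deposited values are raw counts per gene, and strand use in counting is not given in the sources used here. The table had 58312 rows, of which 5 named no gene, held at most 0.00529% of a library and were left out. Counts were tested with edgeR 4.0.16 (R 4.3.3): genes passed filterByExpr with a minimum count of 10, libraries were scaled by TMM, and p-values of the quasi-likelihood test were adjusted by Benjamini-Hochberg over all genes tested. For a gene to be "called", a fold change over 1.5 was required beside an adjusted p under 0.05. The treatments were compared within each cell line label, and the difference and the comparison under etoposide came from 1 fit of all 12 libraries. Errors are standard errors of the fit or, for CPM, SD. Alternatives were DESeq2 1.42.0, other scalings and filters, halved counts, summed rows of a symbol, 1 fit of all libraries, a replicate block and leaving out each library. Scripts were tested on simulated data.

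Gene positions, which include all transcripts of a gene, and lengths came from GENCODE 44 (GRCh38). Of the 35 symbols 34 were current, and ADSS was matched as an older symbol. Motifs were searched on both strands of the 250 bases before each RefSeq start. The members and gene lists were chosen with earlier results of these data known. Named in full were called members, the largest change and the highest level of each arm, paralogs, PPAT and PAICS, called genes of the wider pathway with RRM2B and HPRT1, the regulators and the 3 most abundant genes of each further list. The markers MITF, TYRP1, DCT, S100B, PAX3, CD68, LYZ, LUM, DCN, PECAM1 and KDR, and other members past the adjusted p, were named after their values were seen, as were genes that overlap a member. KRT5, COL1A2, PTPRC and CLDN5 were named outside the choice stated above. Some genes that this choice would name are not reported here.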

Additional observations from a re-analysis of the deposited data

Results flagged for a closer look

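For 5 genes of the 35 members and 70 further pathway genes, a share close to the 5.62% of all genes tested, the cell line labels differed in how they responded to rapamycin in the test of the difference itself (label SK-MEL-28 minus A375, edgeR, fit of all 12 libraries), which rests on the libraries with doubtful labels. TK1 had a difference of -0.90 ± 0.17 (edgeR adjusted p = 0.00448), with 1.09 ± 0.10 in A375 and 0.18 ± 0.12 under the SK-MEL-28 label. GUK1, the guanylate kinase, had -0.32 ± 0.07 (edgeR adjusted p = 0.0118), with 0.14 ± 0.05 in A375 and -0.18 ± 0.05 under the SK-MEL-28 label, so it rose in A375 and fell under the SK-MEL-28 label. AK3, a mitochondrial adenylate kinase family member, had 0.34 ± 0.09 (edgeR adjusted p = 0.0401), with -0.38 ± 0.07 in A375 and -0.05 ± 0.06 under the SK-MEL-28 label. NME7, of the nucleoside diphosphate kinase family, had 0.49 ± 0.12 (edgeR adjusted p = 0.0304), with -0.29 ± 0.09 in A375 and 0.19 ± 0.09 under the SK-MEL-28 label. DLD, which serves the glycine cleavage system and several dehydrogenases, had 0.24 ± 0.06 (edgeR adjusted p = 0.0354), with -0.25 ± 0.05 in A375 and -0.02 ± 0.05 under the SK-MEL-28 label.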

How the results depend on the processing

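No member reversed its direction past the threshold under any alternative. In A375 11 of the 15 members past the adjusted p kept it in all 6 fits that left out a library and all 9 other alternatives (PFAS, IMPDH2, CAD, RRM2, TYMS, TK1, PGLS, RPE, TKT, SHMT1 and MTHFD1L), and under the SK-MEL-28 label 6 of 12 did (RRM2, TYMS, PGLS, SHMT1, MTHFD1L and NME1). Between the labels under etoposide 13 of 22 did, over 12 and 8 fits.

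Scaling by library totals moved the median of all genes by less than 0.1 on the log2 scale, and the share of higher genes among those past the adjusted p from 50.8% to 39.7% in A375 and from 46.6% to 36.1% under the SK-MEL-28 label. It gave arm medians of 0.26 for deoxynucleotide genes in A375, and of -0.0091 for folate genes and -0.39 for NME1 under the SK-MEL-28 label. The pyrimidine median under that label turned negative too, at -0.0071. In A375 the folate median was 0.017 and the purine median turned slightly negative. Without the fold change threshold, 15 members were called in A375, 12 under the SK-MEL-28 label and 22 between the labels under etoposide. When a single count in any library let a gene be tested, 7 members passed the adjusted p under the SK-MEL-28 label, where many more genes were tested. For the difference between the labels 7 passed with DESeq2, 3 with RLE size factors, 5 with 10 counts in every library, 2 with halved counts and 3 with summed rows.

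Leaving out 1 library gave 2 to 3 called and 11 to 15 past the adjusted p in A375. Under the SK-MEL-28 label it gave 0 to 1 called (TYMS, without etoposide + rapamycin replicate 1) and 7 to 11 past, with 7 without etoposide + rapamycin replicate 3 or etoposide replicate 3. For the difference it gave 1 to 4 past, with 4 without A375 etoposide replicate 1 and 2 without SK-MEL-28 etoposide + rapamycin replicate 3 or etoposide replicate 1. Under etoposide it gave 0 to 2 called, with 0 without A375 etoposide replicate 1 and 2 without A375 etoposide replicates 2 or 3 or SK-MEL-28 etoposide replicate 3. Under the SK-MEL-28 label the arm medians ranged over 0.18 to 0.29 for deoxynucleotide, 0.0074 to 0.054 for folate and -0.0020 to 0.084 for pyrimidine genes. In an arm left with fewer libraries the spread was pooled. Causes of these shifts were not tested.

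Replicate numbers did not pair the libraries: deviations of same-numbered libraries correlated at -0.030 to 0.021. With the number as a replicate block, RRM1 in A375 and PPAT and CAD under the SK-MEL-28 label no longer passed the adjusted p, 13 members passed and 3 were called between the labels under etoposide, and in the other comparisons the counts stayed within 1.5 times.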
